A study of Mus musculus with 4 samples.

Results

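Heparan sulfate is a sugar chain carried by cell-surface and matrix proteins, and its binding sites for growth factors and guidance cues are written by sulfotransferases. The 10 genes described here, of 31053 in the deposited matrix, encode such enzymes: Ndst1, Ndst2, Ndst3, Ndst4, Hs6st1, Hs6st2, Hs6st3, Hs3st2, Hs3st4 and Hs3st5. They were taken by gene symbol, all 10 were present, and all 10 are followed across cell classes, subtypes and stages of the mouse superior colliculus. The set was chosen by a measured value, the lower level of Ndst4 in excitatory neurons after E19, so the levels below are a description and were not tested.

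The NDST enzymes remove acetyl groups from glucosamine in the growing chain and put sulfate in their place, which opens stretches of chain to the later enzymes. The Ndst3 enzyme is known for strong removal of acetyl groups with weak sulfate transfer, and the Ndst4 enzyme for the reverse. The 6-O-sulfotransferases (Hs6st genes) add sulfate that many fibroblast growth factors and their receptors need for binding. The 3-O-sulfotransferases (Hs3st genes) act last and make rare motifs recognised by few proteins. In the developing visual system, heparan sulfate and its 6-O sulfation are known for their part in retinal axon guidance.

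Nuclei came from microdissected superior colliculus, a midbrain centre for vision and orienting, of C57BL/6J mice with no stated genetic change or treatment. There were 4 libraries, 1 for each of embryonic day 19 (E19) and postnatal days 4, 8 and 21 (P4, P8, P21), each from a pool of animals. The design text once writes E10 in brackets beside that embryonic day, while the titles and stage labels give E19, which is used here. The 10x Genomics 3′ v3 chemistry counts unique molecular identifiers (UMIs), and introns were counted because the submitters aligned to a pre-mRNA reference. The authors' annotation placed the 9724 nuclei in 9 classes and 35 subtypes, among them 13 subtypes of excitatory (EN) and 12 of inhibitory (IN) neurons.

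The libraries held 2249 to 2585 nuclei and 19277512 to 31325079 UMIs. Excitatory neurons numbered 1338, 1206, 867 and 682 from E19 to P21, and inhibitory neurons 893, 738, 1088 and 740. A pool of animals gives no replicate, so no test between stages was made and every interval below is a 95% interval for counting error only. UMIs from Xist, an RNA of the female inactive X, were found in 0.967%, 46.0%, 40.7% and 68.1% of nuclei in order of age, so the pools differed in sex. Between 26.2% and 36.5% of excitatory nuclei and 11.1% to 23.4% of inhibitory nuclei also carried UMIs of the other transmitter type. Of 48 pairs of a marker list and a library, 39 had the highest summed marker level in the class of that name. The list for epithelial cells (Ttr, Foxj1, Krt18) was never highest in the nuclei deposited as epithelial, which are called by that deposited label only. In the other 5 exceptions the astrocyte list was highest in vascular leptomeningeal cells at E19 and P4, the precursor list in dividing cells at P8 and P21, and the excitatory list in microglia at P8. Across libraries, 9 barcode sequences recurred.

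In GENCODE M21 on GRCm38 (mm10), Ndst3 (ENSMUSG00000027977, chr3:123526166-123690853, minus strand) and Ndst4 (ENSMUSG00000027971, chr3:125404076-125728899, plus strand) lie on the same chromosome, Ndst4 with no overlapping gene. Hs6st2 lies on the X chromosome at chrX:51387212-51681856. Hs6st3 spans 731 kb (chr14:119138341-119869815) and overlaps 5 annotated genes, 4 of them on its own strand. Overlaps on the same strand were also annotated for Ndst3 (1 gene), Hs6st2 (1) and Hs3st4 (2). The sources used here do not give whether reads were counted by strand, and UMIs in such overlaps may belong to either gene.

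From P8 to P21 the members Hs3st2, Hs3st4 and Hs3st5 were each lower in most neuron subtypes, as described further below. The sequence before their RefSeq starts is shown beside that result. That direction was not theirs alone, since 8 of the 10 members were lower in this step in each neuron class. The share of all genes that were lower is not given here. Over all genes tested, the median log2 ratio was 0.02 in excitatory and 0.04 in inhibitory neurons. Ndst1 and Ndst4 in excitatory neurons were lower only within counting error. The same held for Ndst1, Ndst2, Ndst4 and Hs6st1 in inhibitory neurons. The RefSeq table (GRCm38.p6) held windows of 250 bases before the start for 8 of the 10 genes, and Ndst1 and Ndst4 were not matched. The windows printed here run 5′ to 3′ on the gene's strand and, as printed, hold no annotated exon of the gene. The full Hs3st2 window ends in exon sequence, so 244 of its 250 bases are printed. Windows of Ndst3 and Hs6st2, which are not printed, also overlap exons. The Hs3st2 window lies after the GENCODE start of the gene (chr7:121391859), in the first intron of its longer transcript and just before the first exon of its other transcript. Capitals mark every match on either strand to the motifs searched: TATAAA (the TATA box), CCAAT (the CCAAT box), TGACGTCA (the cAMP response element), CAGCTG (an E-box) and GGGCGG (the GC box).
Hs3st2, chr7:121392046-121392289: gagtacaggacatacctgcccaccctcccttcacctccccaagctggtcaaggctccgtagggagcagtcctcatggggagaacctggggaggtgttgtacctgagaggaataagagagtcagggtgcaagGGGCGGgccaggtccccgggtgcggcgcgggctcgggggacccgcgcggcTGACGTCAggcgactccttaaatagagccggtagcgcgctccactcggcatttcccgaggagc
Hs3st4, chr7:123982578-123982827: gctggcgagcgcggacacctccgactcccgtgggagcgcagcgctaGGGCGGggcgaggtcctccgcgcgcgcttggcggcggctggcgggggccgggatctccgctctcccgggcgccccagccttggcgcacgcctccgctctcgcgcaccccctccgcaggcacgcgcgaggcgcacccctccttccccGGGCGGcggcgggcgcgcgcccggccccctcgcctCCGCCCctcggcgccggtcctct
Hs3st5, chr10:36506557-36506806: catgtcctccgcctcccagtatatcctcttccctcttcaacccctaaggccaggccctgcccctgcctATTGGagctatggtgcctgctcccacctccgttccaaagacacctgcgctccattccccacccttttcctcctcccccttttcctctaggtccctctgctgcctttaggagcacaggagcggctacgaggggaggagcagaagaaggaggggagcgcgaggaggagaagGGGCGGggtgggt
All 3 windows held GGGCGG, which 32.7% of all 32851 windows hold on one strand or the other. The Hs3st2 window also held TGACGTCA, present in 1.55% of windows, and the Hs3st5 window held CCAAT (read on the other strand), present in 33.8%. The printed windows differed widely in their content of the dinucleotide CG, with 17 in Hs3st2, 43 in Hs3st4 and 8 in Hs3st5. The full Hs3st4 window held as many as or more than 99.5% of all windows. A match describes letters in the window and not a bound site.

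Levels are given as UMIs per 1000000 UMIs of the class (CPM), and changes as log2 ratios after adding 5 CPM to each level, so that changes of low genes are understated. A member was counted as past the fold when the absolute log2 ratio was 1 or more, with 20 CPM or more in the higher library. Levels are compared within a gene, since UMI yield also depends on gene length.

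Ndst4 was the member with the largest change in excitatory neurons from E19 to P21. In excitatory neurons it stood at 341 CPM (331 to 352) at E19, then 91.2 (86.5 to 96.2), 49.2 (45.5 to 53.1) and 47.2 (43.8 to 50.9) at P4, P8 and P21. The E19 library was high, and the 3 postnatal libraries lay well below it. From P4 to P8, 0 of 8 members were past the fold, against 1.19% of all genes. The log2 ratio from E19 to P4 was −1.85 (−1.93 to −1.76), from P4 to P8 −0.83 (−0.95 to −0.70) and from E19 to P21 −2.73 (−2.84 to −2.62). Of 9 members at 20 CPM or more, 1 was past the fold from E19 to P4, against 1.17% of all genes, and from E19 to P21 again 1 of 9, against 16%. These values are those for which the set was chosen, and nothing is read from them.

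The high level at E19 sat in one subtype, EN2, which held 3066 of the 3935 Ndst4 UMIs of excitatory neurons in that library (77.9%). Within EN2, Ndst4 stood at 1444 CPM at E19, then 244, 84.3 and 181 at P4, P8 and P21. Over the same libraries EN2 went from 287 nuclei (21.4% of excitatory neurons) to 107 (8.87%), 44 (5.07%) and 36 (5.28%). Both the level inside EN2 and the share of EN2 were therefore highest at E19. With EN2 left out, Ndst4 in the remaining excitatory neurons was 92.4, 77.3, 47.1 and 40.1 CPM in order of age, and the log2 ratio from E19 to P4 was −0.24. With every subtype weighted alike it was −1.23. The subtype labels come from clustering of the same nuclei, so Ndst4 may have helped to define EN2.

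**Figure D1:**
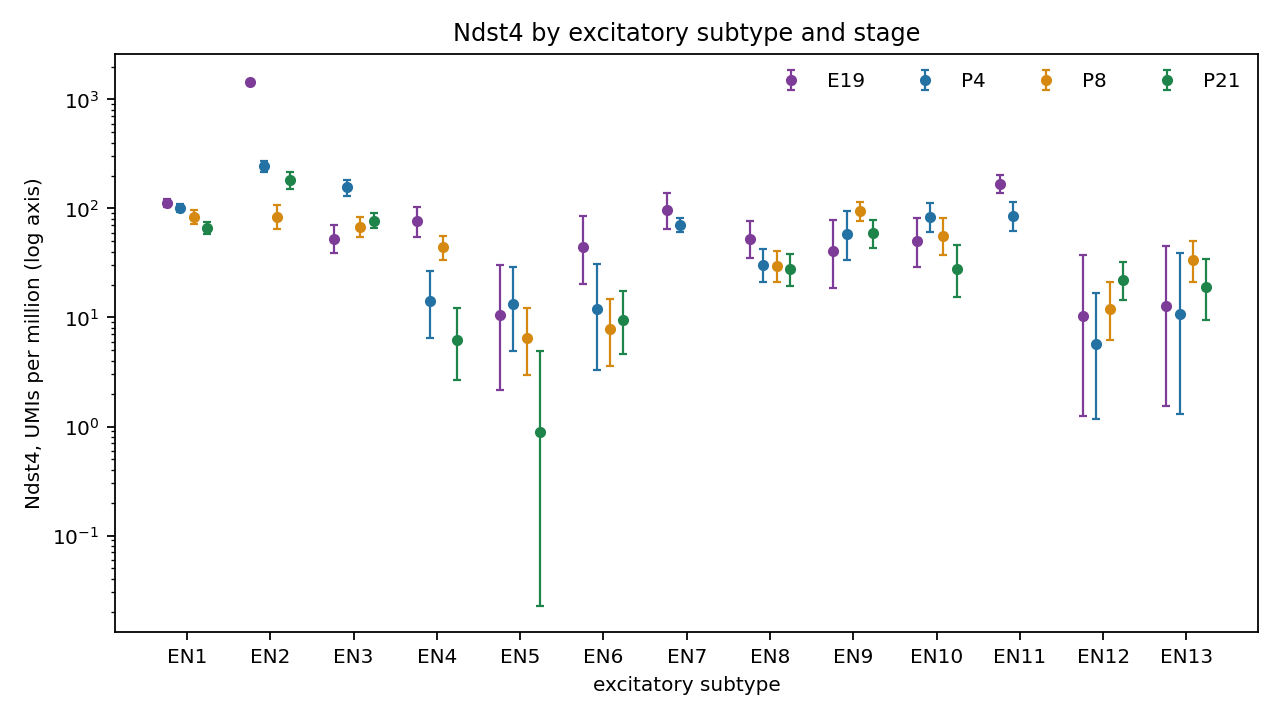
Ndst4 level (UMIs per 1000000, log axis) in each excitatory subtype with 20 or more nuclei in a library, coloured by stage, with 95% counting intervals; no point is drawn for EN7 and EN11 at P8 and P21. EN2 at E19, at 1444 CPM, lies far above every other point, and the next highest is EN2 at P4 with 244 CPM.

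Within EN2 the transcript was spread over many nuclei at E19 and sat in fewer nuclei later. At E19 the median EN2 nucleus held 4 Ndst4 UMIs, 105 of 287 held 10 or more, and the 29 nuclei with the most held 43.0% of the UMIs. The 11 EN2 nuclei with the most held 61.8% of the UMIs at P4, and the top 5 held 57.1% at P8. At P21 the top 4 of 36 nuclei held 70.9% of 134 UMIs, so the level of 181 CPM there rests on few nuclei. An Ndst4 UMI was found in 71.8% of EN2 nuclei at E19 (66.2% to 76.9%, exact Clopper-Pearson), and in 55.1%, 47.7% and 55.6% at P4, P8 and P21. Median depth rose over those stages from 7082 to 19845.5 UMIs, and after thinning each nucleus to 2300 UMIs the shares were 58.5%, 29.0%, 9.09% and 30.6%. In astrocytes, at median depths of 4329 to 5525 UMIs, the share was 6.63% at E19 and 1.74% at P21, and 3.06% and 0.697% after thinning. The EN2 shares stood above the astrocyte shares in each library, although the thinned intervals at P8 overlapped (2.53% to 21.7% in EN2, 0.266% to 3.72% in astrocytes).

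Other excitatory subtypes did not share one course. From E19 to P4, Ndst4 was lower in 9 of 13 subtypes, 5 of them beyond counting error, and higher in 4, 1 beyond counting error. EN4 went from 76.3 to 14.1 CPM and EN11 from 169 to 85.7 CPM. EN3 moved the other way, from 52.9 to 156 CPM (log2 ratio 1.48). EN1, with 514 nuclei the most common excitatory subtype at E19, went from 112 to 102 CPM, and to 66.3 CPM at P21. EN5 and EN12 held the lowest levels in 2 libraries each, at most 6.49 and 10.3 CPM there, from at most 9 and 3 UMIs.

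In inhibitory neurons Ndst4 had no such peak and stood at 99.6 CPM (91.8 to 108) at E19, then 126 (118 to 135), 90.6 (85.1 to 96.4) and 84.1 (78.9 to 89.7) at P4, P8 and P21. No member was past the fold in inhibitory neurons from E19 to P4 (0 of 9, against 1.02% of all genes) or from P4 to P8 (0 of 8, against 0.519%). The P4 library was highest, but with subtypes weighted alike the log2 ratio from E19 to P4 turned from 0.33 to −0.17. IN10 had 39.4 CPM at E19, then 120.0, 96.6 and 124 at P4, P8 and P21. IN4 had 101 CPM at E19, then 15.5, 7.57 and 16.7 at P4, P8 and P21, but its 35 UMIs at E19 came from 4.23% of 71 nuclei, and a UMI was found in 8.43% of nuclei at P4. From E19 to P4, 6 inhibitory subtypes were higher, 2 of them beyond counting error, and 6 lower, 3 of them beyond counting error with IN4 among these. The difference between excitatory and inhibitory neurons in this step was not tested.

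Ndst3, the close relative of Ndst4, had a different course, with its highest inhibitory level at P21. Inhibitory neurons held 126 CPM (117 to 135) at E19, then 105 (97.2 to 113), 118 (111 to 124) and 223 (214 to 231) at P4, P8 and P21. The first 3 libraries lay between 105 and 126 CPM and the last stood apart above them. The log2 ratio from P8 to P21 was 0.89 (0.80 to 0.99), and Ndst3 was higher at P21 in 12 of 12 inhibitory subtypes, 11 of them beyond counting error. Excitatory neurons held 101 CPM (95.2 to 107) at E19, then 89.9 (85.1 to 94.8), 67.9 (63.5 to 72.4) and 112 (107 to 118) at P4, P8 and P21, lowest at P8, with a log2 ratio from P8 to P21 of 0.68 (0.57 to 0.80). There Ndst3 was higher in 10 of 11 subtypes, with EN9 the exception. Neither change was past the fold, as was the case for all 8 members at 20 CPM in this step, against 5.35% of all genes in excitatory and 5.9% in inhibitory neurons.

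Among inhibitory subtypes IN9 had the lowest Ndst3 level in all 4 libraries, with 0 UMIs in 32 nuclei at E19, which allows up to 19.5 CPM, and 56.6 CPM at P21. IN5 was highest at E19 (233 CPM) and P8 (281 CPM), and IN3 at P21 (409 CPM). Among excitatory subtypes EN2 was highest at E19 and P4, with 213 and 172 CPM, and EN3 at P8 and P21, with 115 and 237 CPM. EN5 was lowest at E19 (10.4 CPM, from 3 UMIs) and P8 (11.5 CPM, from 16 UMIs). EN2 was thus high in both NDST genes at E19 and P4.

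The balance of Ndst3 to Ndst4 UMIs moved toward Ndst3 in both neuron classes. In excitatory neurons the log2 ratio of the UMIs was −1.76, −0.02, 0.46 and 1.25 in order of age, a change of 3.00 (2.84 to 3.17) over the period. Without EN2 the change was 1.72. From E19 to P21 the excitatory log2 ratio was −2.73 for Ndst4 and 0.14 for Ndst3. The excitatory change therefore rests on the Ndst4 values for which the set was chosen, and nothing is read from it. In inhibitory neurons the ratio was 0.34, −0.27, 0.38 and 1.40, a change of 1.06 (0.87 to 1.25). Only the changes of these ratios are compared, since the genes differ in length.

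Ndst1 and Ndst2, the broadly expressed NDST genes, were detected at low levels. Ndst1 stood at 22.6 CPM at E19, then 17.0, 13.9 and 13.2 at P4, P8 and P21 in excitatory neurons, and at 23.3 CPM at E19, then 19.6, 17.7 and 14.8 at P4, P8 and P21 in inhibitory neurons. It was highest at E19 in both classes, with log2 ratios from E19 to P21 of −0.60 (−0.81 to −0.39) and −0.52 (−0.78 to −0.26). Ndst2 stayed between 9.38 and 16.3 CPM in both neuron classes and was under the 20 CPM minimum there in every library. Ndst1 was lower at P21 than at E19 in 8 of 11 excitatory and 11 of 12 inhibitory subtypes, 3 and 2 of them beyond counting error.

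**Figure D2:**
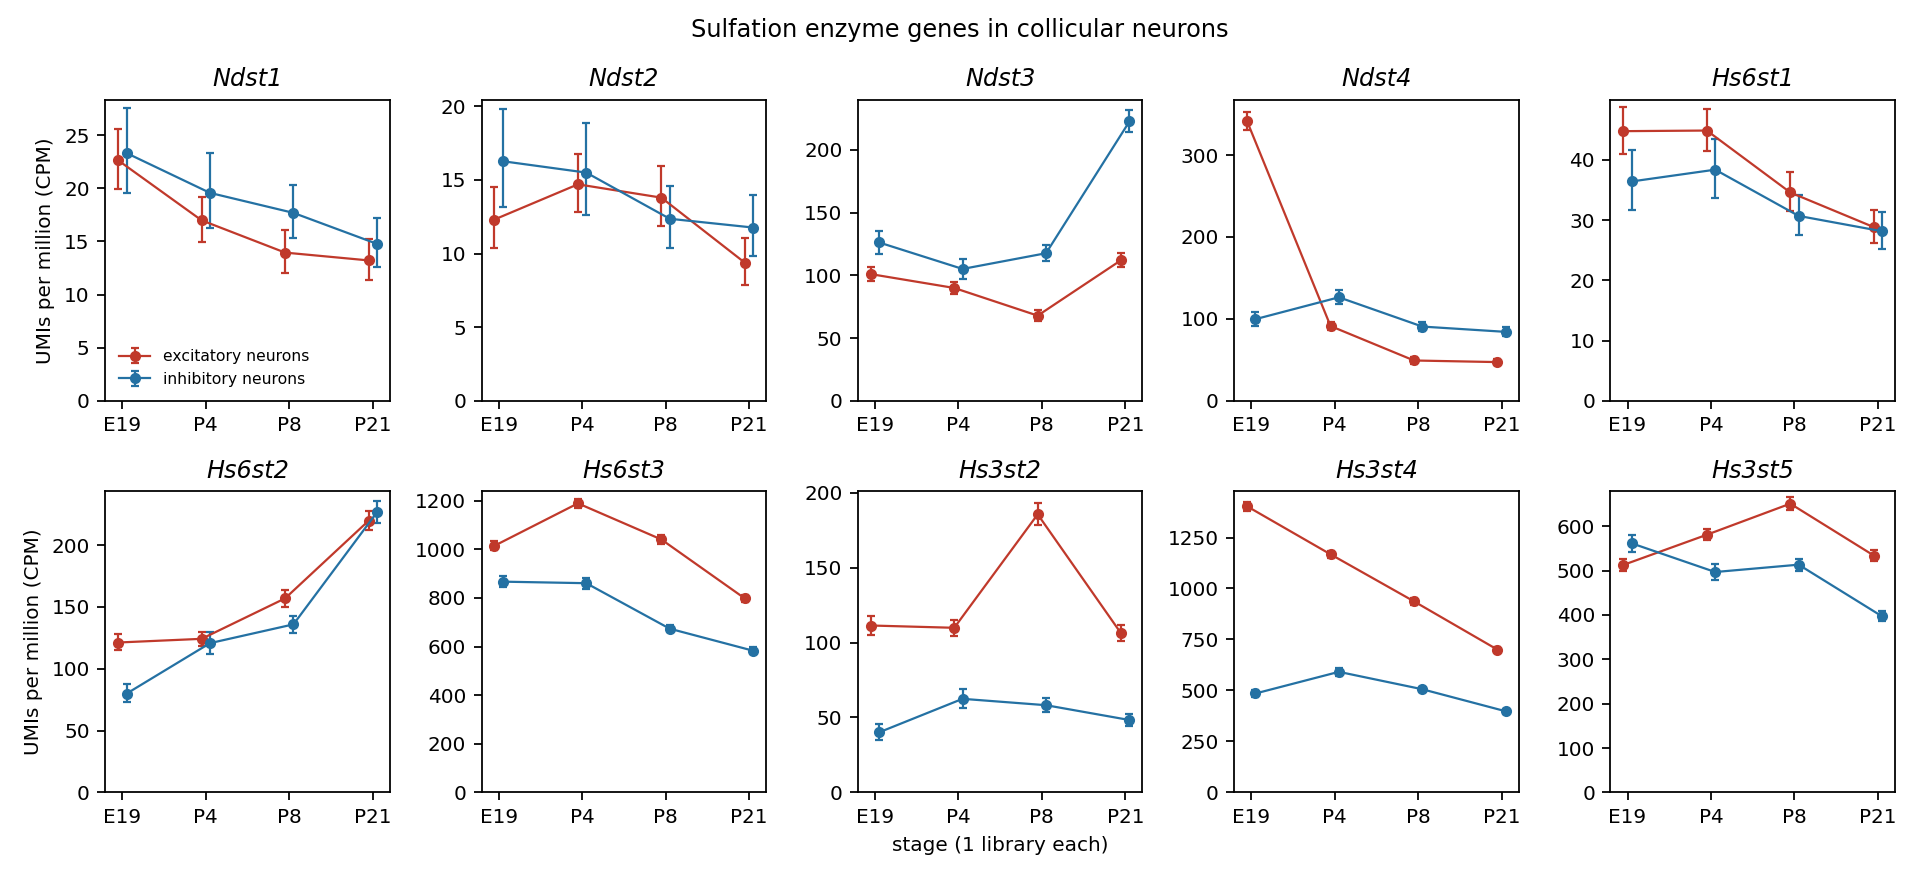
Level of each member (UMIs per 1000000) in excitatory (red) and inhibitory (blue) neurons at the 4 stages, 1 library each, with 95% counting intervals; each panel has its own axis from 0. Ndst4 in excitatory neurons goes from 341 CPM at E19 to 47.2 at P21, while Hs6st2 ends at 219.7 and 226 CPM in the 2 classes.

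Among the 6-O-sulfotransferase genes, Hs6st2 was the one with higher neuronal levels at each later stage. Inhibitory neurons held 79.8 CPM (72.8 to 87.4) at E19, then 121 (112 to 129.5), 136 (129 to 143) and 226 (218 to 235) at P4, P8 and P21. Excitatory neurons held 121 CPM (115 to 128) at E19, then 124 (119 to 130.0), 157 (150.2 to 164) and 219.7 (212 to 227) at P4, P8 and P21, with P4 within counting error of E19. The libraries were ordered by age in inhibitory neurons, and the P21 level was the highest in both classes. From E19 to P21 the log2 ratio was 1.45 (1.31 to 1.58) in inhibitory neurons, where Hs6st2 was the 1 of 9 members past the fold, against 17.2% of all genes. In excitatory neurons it was 0.83 (0.74 to 0.92).

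The higher level at P21 was shared by the subtypes. From E19 to P21 Hs6st2 was higher in 11 of 11 excitatory and 12 of 12 inhibitory subtypes, and from P8 to P21 in 10 of 11 and 11 of 12. EN5 (154 to 149 CPM) and IN6 (284 to 263 CPM) were the exceptions to the later step. EN12 had the highest excitatory level in all 4 libraries, with 191 CPM at E19, then 327, 312 and 400.0 at P4, P8 and P21, and EN13 the lowest, with 19.0 CPM at E19, then 10.8, 89.9 and 148 at P4, P8 and P21. IN6 was the highest inhibitory subtype from E19 to P8, and IN11 the lowest from P4 to P21. The excitatory extremes thus kept their rank by level, while among inhibitory subtypes IN9 was lowest at E19 and IN10 highest at P21. The EN13 intervals were wide in the early libraries, 3.92 to 55.5 CPM at E19 and 1.31 to 39.0 CPM at P4. In both classes the lowest and the highest subtype level were higher at P21 than at E19. The highest inhibitory level was 284 CPM at P8 and 283 CPM at P21.

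Because Hs6st2 is X-linked and the pools differed in sex, neurons were also split by sex-linked transcripts, a choice made after seeing the data. In excitatory neurons with a Y-linked and no Xist UMI, Hs6st2 stood at 119.8 CPM at E19, then 122, 165 and 226. Those with Xist and no Y-linked UMI held 133 CPM at P4, 149.8 at P8 and 219 at P21. In inhibitory neurons the Y-linked group went from 85.0 CPM at E19 to 143 at P8 and 237 at P21, and the Xist group from 129 at P8 to 233 at P21. No E19 value is given for the Xist group, and the part of sex in the change from E19 was not tested.

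Hs6st3 was lower in P21 than in E19 neurons taken as whole classes. Excitatory neurons held 1015 CPM (996 to 1033) at E19, then 1189 (1172 to 1207), 1040.4 (1023 to 1058) and 798 (783 to 812) at P4, P8 and P21, with the highest class level at P4. EN7 was the highest excitatory subtype at P4 (1952 CPM), with 191 nuclei there and 1 at P8. The excitatory log2 ratio from P4 to P8 was −0.19, but 0.04 without EN7 and 0.18 with subtypes weighted alike. By subtype, 10 of 11 excitatory subtypes were higher at P8 than at P4. Inhibitory neurons held 867 CPM (843 to 891) at E19, then 861 (838 to 884), 673 (658 to 689) and 583 (569 to 597) at P4, P8 and P21. The log2 ratio from E19 to P21 was −0.35 in excitatory and −0.57 in inhibitory neurons, but with subtypes weighted alike the inhibitory value was 0.11. By subtype, 9 of 12 inhibitory subtypes were higher at P21. IN1, with 266 nuclei at E19 and 70 at P21, had the highest Hs6st3 level in 3 libraries (1167 to 1623 CPM). EN9 was the highest excitatory subtype at P8 (1813 CPM) and P21 (1392 CPM), while EN10 and EN12 were lowest in 2 libraries each, from 124 to 206 CPM.

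Hs6st1 was low, and lower at P8 and P21 than at E19 and P4, with 44.7 CPM at E19, then 44.8, 34.6 and 28.8 at P4, P8 and P21 in excitatory neurons and 36.4 CPM at E19, then 38.4, 30.7 and 28.1 at P4, P8 and P21 in inhibitory neurons. Its log2 ratio from E19 to P21 was −0.56 (−0.72 to −0.39) and −0.32 (−0.54 to −0.10). It was lower at P21 in 9 of 11 excitatory subtypes and 10 of 12 inhibitory subtypes. The log2 ratio of Hs6st2 to Hs6st3 UMIs changed by 1.20 (1.11 to 1.30) in excitatory and 2.08 (1.93 to 2.23) in inhibitory neurons between E19 and P21, toward Hs6st2.

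The 3-O-sulfotransferase members, Hs3st2, Hs3st4 and Hs3st5, were lower at P21 than at P8 in most neuron subtypes, as were several other members. Hs3st2 was lower in 10 of 11 excitatory and 11 of 12 inhibitory subtypes, and Hs3st4 likewise in 10 of 11 and 11 of 12. Hs3st5 was lower in 9 of 11 and 10 of 12. The excitatory subtypes lower beyond counting error numbered 9 for Hs3st2, 10 for Hs3st4 and 9 for Hs3st5, and the inhibitory ones 7, 9 and 7. These are the genes whose upstream windows are printed above. In the same step Hs6st3 was lower in 9 of 11 excitatory subtypes, 8 beyond counting error, and in 8 of 12 inhibitory subtypes, 5 beyond counting error. Hs6st1 and Ndst2 were each lower in 10 of 11 excitatory subtypes, 1 beyond counting error. Ndst3 and Hs6st2 were higher, as given above. The profiles of the 3-O genes were not alike over neuron subtypes and stages, with Pearson's r over 96 profiles of 0.29 for Hs3st2 and Hs3st4, 0.20 for Hs3st2 and Hs3st5 and −0.20 for Hs3st4 and Hs3st5. The median log2 ratio from P8 to P21 was −0.25 over the 10 members and 0.02 over 7117 genes in excitatory neurons, and −0.15 and 0.04 (7328 genes) in inhibitory neurons.

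**Figure D3:**
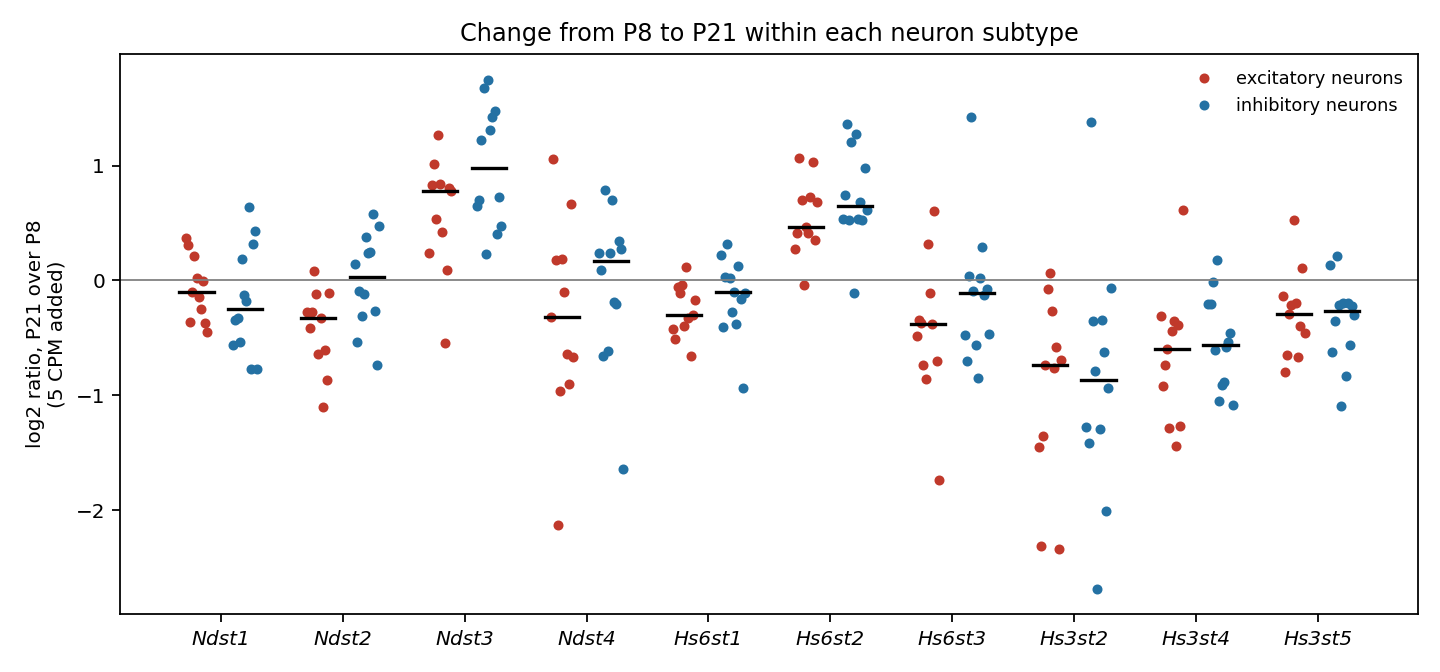
Log2 ratio of P21 over P8 (5 CPM added) for each member in each neuron subtype; a point is a subtype with 20 or more nuclei in both libraries, and the black bar is the median over subtypes. Points for Ndst3 and Hs6st2 lie mostly above 0, and those for Hs3st2, Hs3st4 and Hs3st5 mostly below it.

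Hs3st2, one of the 3-O-sulfotransferase genes known for expression in the brain, had its highest excitatory level at P8. Excitatory neurons held 111 CPM (105 to 118) at E19, then 109.9 (105 to 115), 186 (178 to 193) and 106 (101 to 112) at P4, P8 and P21, and P8 stood apart from the other 3 libraries. The log2 ratio was 0.73 (0.64 to 0.82) from P4 to P8 and −0.78 (−0.87 to −0.69) from P8 to P21. The first of these was 0.37 with subtypes weighted alike and 0.48 without EN7, a subtype with low Hs3st2 (15.5 CPM at P4) that held 191 nuclei at P4 and 1 at P8. EN8 went through 191 CPM at E19, then 238, 313 and 259 at P4, P8 and P21, and EN6 went from 19.8 to 182 CPM. EN12 was lowest at P8 (61.4 CPM) and P21 (8.16 CPM).

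Inhibitory neurons held 40.1 CPM (35.2 to 45.5) at E19, then 62.5 (56.5 to 68.9), 58.2 (53.8 to 62.9) and 48.3 (44.3 to 52.5) at P4, P8 and P21, so the E19 level of the class as a whole was the lowest. IN3 was the inhibitory subtype with a higher level at P21 than at P8. It held 6.62 CPM at E19 (2 UMIs), then 31.6, 49.8 and 138 at P4, P8 and P21. IN6 was the lowest inhibitory subtype from P4 to P21, with 0 Hs3st2 UMIs in 51 nuclei at P21, which allows up to 4.76 CPM. The IN3 value at P21 rests on 126 nuclei, and its interval is 122 to 155 CPM.

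Hs3st4 was lower in each later library in excitatory neurons taken as a whole class. They held 1403 CPM (1381 to 1425) at E19, then 1168 (1150.3 to 1185), 937 (920.4 to 953) and 700.0 (686 to 714) at P4, P8 and P21. By subtype, 8 of 13 were higher and 5 lower at P4 than at E19, 2 on each side beyond counting error. From P4 to P8, 6 of 11 were higher, 5 beyond counting error, and 5 lower, 2 beyond counting error. The class log2 ratio in that step was −0.32, but 0.08 with subtypes weighted alike. Without EN2 the class held 1133 CPM at E19 and 1097 at P4. The log2 ratio from E19 to P21 was −0.998 (−1.03 to −0.96), just short of the threshold. It passed under 5 of 9 alternatives, down to −1.12 with nuclei weighted alike or thinned, and was −0.71 without EN2 and −0.53 with subtypes weighted alike. EN2 had the highest excitatory level at E19 and P4, with 2601 CPM at E19, then 1938, 1621 and 854 at P4, P8 and P21. EN8 kept a high level throughout, with 1355 CPM at E19, then 1785, 2115 and 1653 at P4, P8 and P21, and was highest at P8 and P21. EN4 was lowest in all 4 libraries, between 128 and 217 CPM. Excitatory subtypes therefore spanned a wide range at each stage.

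Inhibitory neurons held 485 CPM (467 to 503) at E19, then 591 (572 to 610.3), 506 (493 to 519) and 398 (386 to 409) at P4, P8 and P21. IN4 was the highest inhibitory subtype from P4 to P21, with 1104, 1885 and 1234 CPM, and IN7 the lowest in all 4 libraries, with 83.2 CPM at E19, then 105, 55.1 and 26.9 at P4, P8 and P21. IN7 was at the other end for Hs3st5, where it was the highest inhibitory subtype at P8 (904 CPM) and P21 (790.3 CPM).

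Hs3st5, whose enzyme makes sites for antithrombin as well as other motifs, ended near its E19 level in excitatory neurons, with 513 CPM (499.9 to 526) at E19, then 581 (569 to 593), 651 (637 to 665) and 534 (522 to 546) at P4, P8 and P21. The log2 ratio from E19 to P21 was 0.06 (0.01 to 0.11). From E19 to P4 it was 0.18, but −0.05 without EN7, the highest excitatory subtype at P4 (969 CPM). Inhibitory neurons held 562 CPM (543 to 581) at E19, then 497 (479.8 to 514), 513 (500.2 to 527) and 397 (385 to 409) at P4, P8 and P21, highest at E19. IN10 had 2160.4 CPM at E19, then 1065, 763 and 517 at P4, P8 and P21, and the E19 level had an interval of 1963 to 2372 CPM. IN4 (E19, P8) and IN6 (P4, P21) were lowest, at 119 to 221 CPM. Among excitatory subtypes EN9 was highest at E19 (795 CPM) and P8 (1201 CPM).

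Within a library, inhibitory and excitatory neurons were compared directly, both classes coming from the same pool. Hs3st2 and Hs3st4 were lower in inhibitory neurons in all 4 libraries. The log2 ratio of inhibitory over excitatory for Hs3st2 was −1.37 (−1.55 to −1.19), −0.77 (−0.92 to −0.62), −1.59 (−1.71 to −1.48) and −1.06 (−1.19 to −0.93) in order of age. For Hs3st4 it was −1.52 (−1.58 to −1.47), −0.98 (−1.03 to −0.93), −0.88 (−0.93 to −0.84) and −0.81 (−0.86 to −0.76). Hs6st3 was also lower in inhibitory neurons in each library, between −0.62 and −0.23. Ndst3 was higher in inhibitory neurons in each library, from 0.21 at P4 to 0.96 at P21, although the P4 value was −0.04 after thinning.

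No member was past the fold in all 4 libraries, out of 8 at 20 CPM or more in each, against 1.13% of all genes. Hs3st2 missed at P4 only. Ndst4 changed side, from −1.73 (−1.85 to −1.61) at E19 to 0.45 (0.33 to 0.57), 0.82 (0.69 to 0.95) and 0.77 (0.64 to 0.90) in the postnatal libraries. Without EN2 the E19 value was 0.10, on the same side as the later libraries. Hs3st5 changed side as well, from 0.13 at E19 to −0.42 at P21. Its P4 value was −0.22, but 0.01 without EN7.

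**Figure D4:**
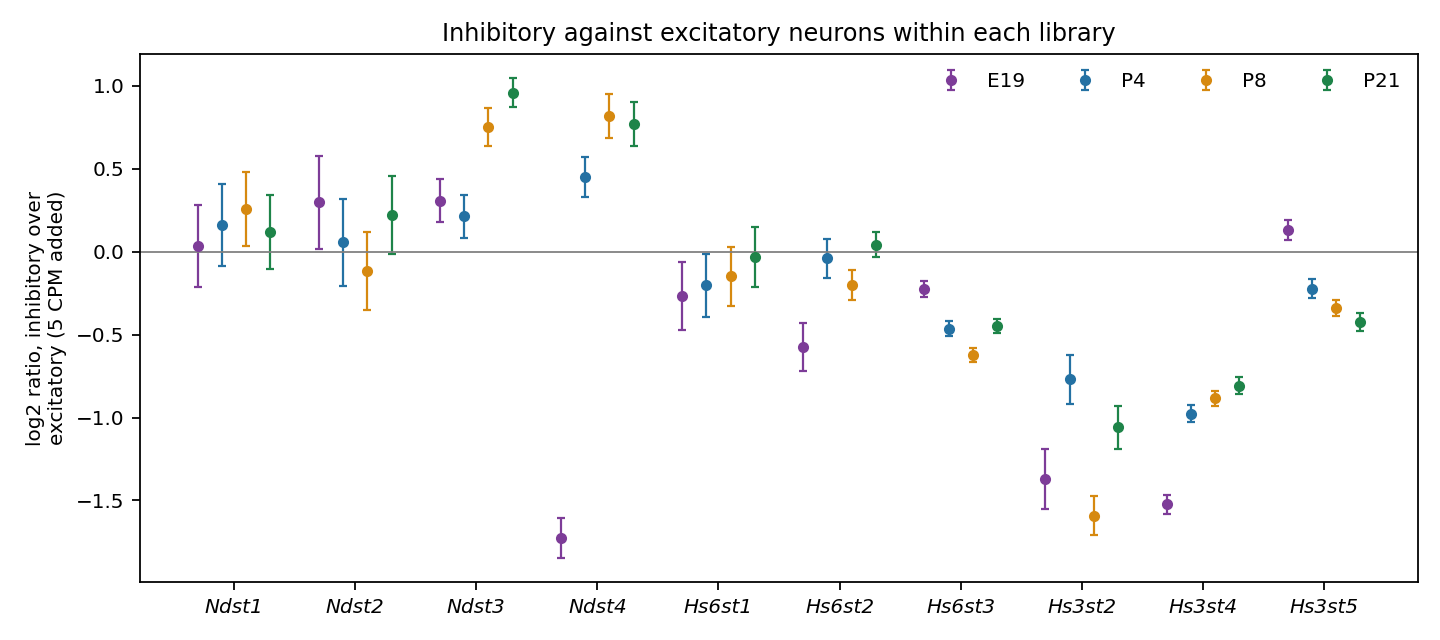
Log2 ratio of inhibitory over excitatory neurons (5 CPM added) for each member in each library, with 95% counting intervals; points above 0 are higher in inhibitory neurons. Hs3st2 and Hs3st4 lie below 0 in all 4 libraries, and Ndst4 lies below 0 at E19 only.

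Astrocytes lost most of their Ndst3 transcript over the period. Ndst3 stood at 182 CPM (156 to 212) at E19, then 131 (109 to 155), 46.8 (35.5 to 60.5) and 10.5 (6.09 to 16.7) at P4, P8 and P21, each level below the one before it. The log2 ratio was −0.47 (−0.79 to −0.14) from E19 to P4, −1.39 (−1.82 to −0.97) from P4 to P8, −1.74 (−2.33 to −1.14) from P8 to P21 and −3.60 (−4.12 to −3.06) overall. From P4 to P8, 1 of 8 members, Ndst3, was past the fold, against 5.25% of all genes. Both astrocyte subtypes took part, fibrous astrocytes with 388 CPM at E19, then 284, 118 and 30.9 at P4, P8 and P21 and protoplasmic astrocytes with 129 CPM at E19, then 86.7, 31.4 and 7.15 at P4, P8 and P21. Of 7 members at 20 CPM or more, 2 were past the fold from E19 to P21, Ndst3 and Hs3st4, against 26.8% of all genes. Hs3st4 went from 82.1 to 27.1 CPM.

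Hs6st3 in astrocytes rose and then fell, with 127 CPM (105 to 153) at E19, then 534 (489.6 to 581), 423 (388 to 461) and 185 (164 to 207) at P4, P8 and P21. The log2 ratio was 2.02 (1.74 to 2.31) from E19 to P4, where 1 of 8 members and 5.55% of all genes were past the fold, and −1.18 (−1.38 to −0.97) from P8 to P21, where 2 of 8 members and 12.3% of all genes were. Fibrous astrocytes went from 63.0 to 691 CPM and protoplasmic astrocytes from 144 to 488 CPM in the first step. In the same step the log2 ratio of Hs6st3 was 0.23 in excitatory and −0.01 in inhibitory neurons.

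Markers of other cells in the astrocyte class were summed beside these values. The 4 general neuron markers summed to 366 to 411 CPM in astrocytes over the libraries. The 3 endothelial markers, whose cells carry Ndst3, summed to 5.40 to 10.5 CPM in astrocytes. The 5 astrocyte markers summed to 1927, 1957, 3003 and 6230.2 CPM from E19 to P21. The 3 epithelial markers reached 675 CPM in astrocytes at P4, against 1.08 CPM at E19, 4.84 at P8 and 7.995 at P21. The 4 myelin markers reached 725 CPM at P21, against 31.7 to 46.0 CPM before. The part of such cells in the astrocyte values was not tested.

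**Figure D5:**
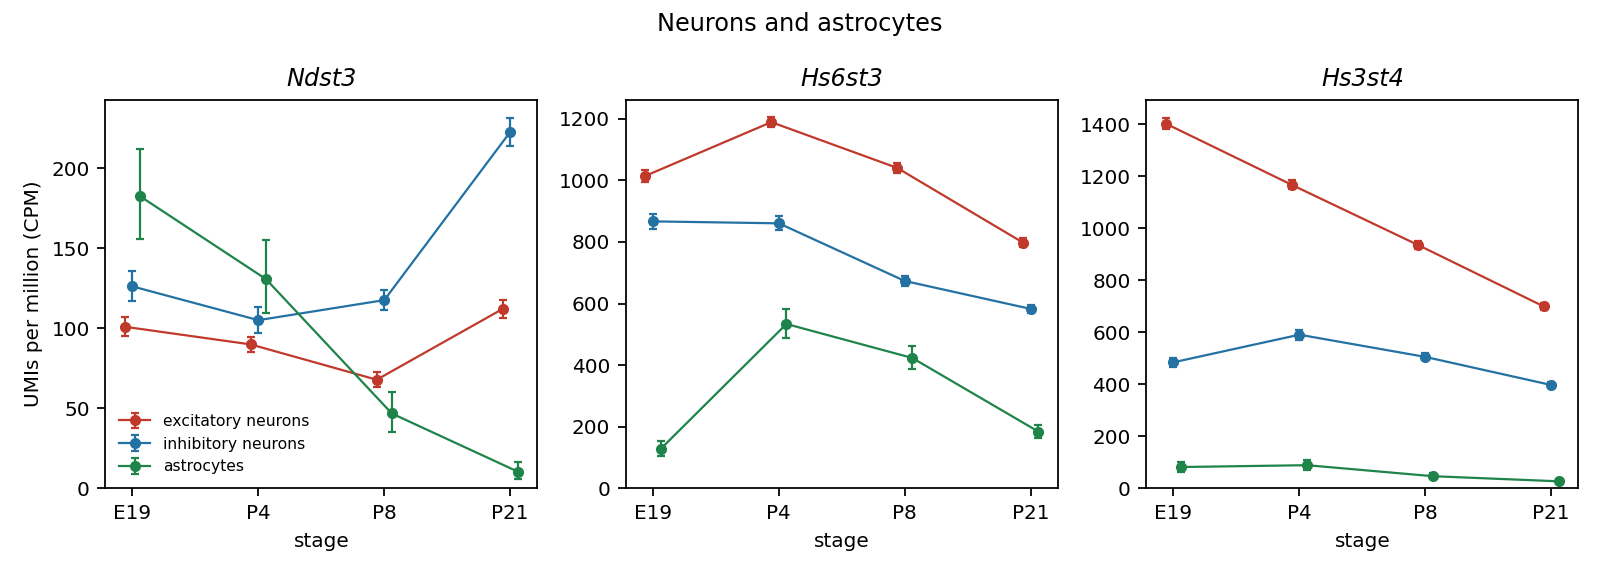
Ndst3, Hs6st3 and Hs3st4 (UMIs per 1000000) in excitatory neurons, inhibitory neurons and astrocytes at the 4 stages, with 95% counting intervals and axes from 0. Ndst3 falls in astrocytes to 10.5 CPM at P21 while it reaches 223 CPM in inhibitory neurons, and Hs6st3 in astrocytes is highest at P4.

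The smaller classes held fewer nuclei, and their values have wide intervals. Endothelial cells, with 12 to 22 nuclei a library, held Ndst3 at 478 CPM (358 to 625) at E19, then 271 (207 to 347), 129 (83.3 to 190.1) and 258 (155 to 402) at P4, P8 and P21. Nuclei deposited as epithelial, 13 to 40 a library, held Hs6st2 at 178 CPM at E19, then 207, 168 and 247 at P4, P8 and P21. In the same nuclei Hs3st5 was 485 CPM (327 to 692) at E19 and 36.4 CPM (17.4 to 66.9) at P21. Microglia, 13 to 33 nuclei a library, held at most 1 Ndst4 UMI in any library.

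The oligodendrocyte lineage changed in makeup, from 46 precursors of 47 nuclei at E19 to 187 myelinating nuclei of 306 at P21. From P4 to P21, 5 of 7 members were past the fold, against 39.3% of all genes. Hs6st3 went from 224 to 56.5 CPM, Hs3st5 from 128 to 34.9 CPM, Hs3st4 from 110.0 to 21.7 CPM and Hs6st2 from 79.2 to 26.8 CPM. Ndst4 was higher at P21 than at P4, from 1 UMI at P4, or 4.40 CPM (0.111 to 24.5), to 31.5 CPM (24.7 to 39.5) at P21. The log2 ratio was 1.96 (0.28 to 2.88), a wide interval set by the single UMI. P4 was the low library, since Ndst4 stood at 30.5 CPM (11.2 to 66.5) from 6 UMIs at E19 and at 23.2 CPM (13.5 to 37.1) at P8. At P21 Ndst4 stood at 34.5 CPM in myelinating nuclei. Within precursors alone, Hs6st2 was 101 CPM at P4 and 107 CPM at P21, and Hs6st3 202 and 230.4 CPM, so in precursors these 2 genes did not show the class-wide decrease. In vascular leptomeningeal cells 0 of 7 members were past the fold from P4 to P21, against 16.1% of all genes.

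The other genes of the pathway were taken from lists of 49 genes: chain synthesis, other chain modification, editing and breakdown, sulfate supply, and core proteins. From E19 to P21, 25 of them reached 20 CPM in excitatory neurons, and 0 were past the fold upward and 4 downward, a share near the 16% of all genes. These were Sdc3 (log2 ratio −2.38), a syndecan core protein of axons, Sulf2 (−1.77), which removes 6-O sulfate outside the cell, Ext1 (−1.36), a chain polymerase, and Nrxn2 (−1.17), a presynaptic adhesion protein that can carry heparan sulfate. In inhibitory neurons 26 reached 20 CPM, and again 0 passed upward and 4 downward, beside 17.2% of all genes: Sdc3 (−2.44), Ids (−1.12), a lysosomal sulfatase, Sulf2 (−1.10) and Nrxn2 (−1.03).

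The pathway genes with the largest increases were under the threshold. They were Hgsnat, a lysosomal acetyltransferase (0.96 in excitatory and 0.99 in inhibitory neurons), the glypican Gpc3 (0.84 in excitatory neurons) and the syndecan Sdc2 (0.81 in inhibitory neurons). The median log2 ratio was −0.17 over the 25 genes at 20 CPM in excitatory and −0.23 over the 26 in inhibitory neurons, beside −0.06 and −0.04 over all genes tested. Hs2st1, the single 2-O-sulfotransferase gene, had 157 CPM in E19 and 154 CPM in P21 excitatory neurons.

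Likeness of pattern was measured as Pearson's r of log2 levels over 96 neuron profiles, each a subtype in a library, among 7516 genes. Profiles of a library share its depth and pool, so r is given as a description. The genes most like Ndst4 were Tox (0.61), Nox4 (0.60) and Nr2f2 (0.54). The gene most like Ndst3 was Brinp3 (0.67), for Hs6st2 Gprasp1 (0.71), for Hs3st2 Kif26b (0.66) and for Hs3st4 Tmtc2 (0.60). For Hs6st3 it was Uggt2 (0.56), for Ndst1 Atp5j (0.54), for Hs3st5 Kcnh7 (0.53), for Hs6st1 Dlgap4 (0.52) and for Ndst2 4930517O19Rik (0.50). Among pairs of members the highest r was 0.47, between Ndst3 and Ndst4.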

How the data were processed

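The deposited matrix holds UMI counts per gene and nucleus, made by the authors with Cell Ranger 3.0.2 on a pre-mRNA reference from mm10, per the submitters' processing notes and the series' design text. The authors' table of nuclei gives stage, class and subtype as labels of another kind than numbers, and the deposited percent of mitochondrial and ribosomal UMIs, which was not used further. The sources used here do not give the filters on nuclei or the treatment of doublets, no nucleus was removed, and nuclei with UMIs of both transmitter types were left out as an alternative only.

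UMIs were summed per library and class or subtype and scaled to 1000000. Intervals were exact Poisson for levels, joined for ratios, and exact Clopper-Pearson for shares, all at 95%. A count of 0 was bounded by 3 counts. With 1 library a stage, samples were grouped by stage and no test was made. The calling by fold was tried on simulated counts with counting error only. Such counts hold no animal or library variation, so they do not show how the calls would hold between pools. Python 3.11.15, numpy 2.4.6, scipy 1.17.1, pandas 2.3.3 and matplotlib 3.10.9 were used.

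The members, the pathway lists and the marker lists were chosen with earlier results of these data known. All 10 members are described. Named subtypes are those highest or lowest in their class in at least 2 libraries; the others named, and Hs2st1, were chosen after their values were seen. Pathway genes named are those past the fold and those with the 2 largest increases and decreases in a class. Likeness used profiles of 20 or more nuclei and genes with 50 CPM or more in 1 profile, naming 3 genes for Ndst4 and 1 for every other member. Alternatives changed the scaling (median of ratios), the added CPM (1 or 20), the weight of nuclei and of subtypes, mixed nuclei, depth, EN7 and EN2, the minimum level and the fold.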

Additional observations from a re-analysis of the deposited data

Results flagged for a closer look

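For 8 comparisons the log2 ratios between stages in 2 cell classes had opposite signs with intervals clear of 0, differed by 1 or more and had 20 CPM or more behind each, and none of these differences was tested, since each stage was 1 library. Ndst3 accounted for 5 of them, being lower in astrocytes and higher in neurons at the later stage. The astrocyte log2 ratio minus the inhibitory one was −1.55 from P4 to P8, −2.64 from P8 to P21 and −4.40 from E19 to P21. The astrocyte log2 ratio of Ndst3 minus the excitatory one was −2.43 from P8 to P21 and −3.74 from E19 to P21.

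For Ndst4 the excitatory log2 ratio from E19 to P4 minus the inhibitory one was −2.17. The excitatory value is one for which the set was chosen, so nothing is read from this difference. The excitatory value itself was −0.24 without EN2, and the inhibitory value turned from 0.33 to −0.17 with subtypes weighted alike. Hs6st2 from P4 to P8 was lower in astrocytes and higher in excitatory neurons, with a difference of −1.09. Hs6st3 from E19 to P21 was higher in astrocytes and lower in inhibitory neurons, with a difference of 1.09, and the inhibitory value changes sign when subtypes are weighted alike.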

How the results depend on the processing

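No paired analysis was possible because each stage was 1 library and the labels give no replicate numbers. The log2 ratio of Ndst4 from E19 to P4 in excitatory neurons (−1.85) was −1.70 with 20 CPM added, −2.10 with nuclei weighted alike, −1.23 with subtypes weighted alike and −0.24 without EN2, the last chosen after seeing the data. The change of the Ndst3 to Ndst4 ratio (3.00) was 3.25 with nuclei weighted alike, 2.66 with subtypes weighted alike, 3.17 without mixed nuclei and 1.72 without EN2. The number of members past the fold from E19 to P21 in excitatory neurons (1) was 2 with 1 CPM added, with nuclei or subtypes weighted alike, without mixed nuclei, after thinning and without EN7, and 4 at a threshold of 1.5-fold. In inhibitory neurons (1) it was 2 with subtypes weighted alike and 2 at 1.5-fold. The number past the fold between the neuron classes in all 4 libraries (0) was 1 with subtypes weighted alike, 1 without EN7 and 2 at 1.5-fold. The Ndst4 ratio of inhibitory over excitatory neurons at E19 (−1.73) turned to 0.10 without EN2. Beyond these alternatives the cause of each change was not tested. Of single ratios between stages, 722 stayed within counting error and 149 moved beyond it; between classes, 285 stayed and 74 moved, besides the 1 that turned. In 66 cases a ratio under the threshold changed sign, among them Hs3st4 (−0.32 to 0.08) and Hs6st3 (−0.19 to 0.18) from P4 to P8 in excitatory neurons with subtypes weighted alike. With 1 library a stage, neither animal nor library variation can be told apart from stage, and members under 20 CPM are limited by depth.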
